A study of Mus musculus with 10 samples.

Results

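The genes described here are the AP-1 subunit genes *Fos*, *Fosb*, *Fosl1*, *Fosl2*, *Jun*, *Junb* and *Jund* and the activity-induced genes *Egr1*, *Npas4* and *Arc*, 10 genes in all. They were chosen by name, with earlier results of these data known. Every ERα peak in their gene bodies or within 50 kb of any of their RefSeq start sites was collected. Of 25982 peaks in 8 libraries, 71 met this rule. Overlapping peaks (1 bp or more) were joined across libraries, and the 71 peaks fell into 16 of the 8072 merged regions of the series.

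Binding of ERα to DNA was mapped by ChIP-seq, the sequencing of DNA fragments that an antibody against the protein pulls down. The tissues were the arcuate nucleus of the hypothalamus and what the authors call the AVPV. By their definition this is a rostral area along the third ventricle, with the anteroventral periventricular nucleus and the periventricular nucleus together. It is called a nucleus here, as in their text. There were 4 ERα libraries of each nucleus. All were from female C57BL/6 mice, typically 8 to 12 weeks old, that had been ovariectomised, carried a subcutaneous implant of 17β-estradiol in sesame oil (0.1 mg/mL) and were injected with estradiol benzoate (0.05 mg/kg, also in oil) 28 h before collection. Both nuclei received the same treatment, and no ERα library of vehicle-treated mice was analysed here, so the comparison is between nuclei under estradiol. Chromatin was pooled before immunoprecipitation, and nothing read here states that each library came from its own pool, so SDs and p-values are over libraries, whose spread may be technical. The chromatin came from dissected tissue, so more ERα-positive cells and more binding per cell cannot be told apart.

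AP-1 is a dimer of a Fos protein with a Jun protein, or of Jun proteins, that binds DNA through paired basic leucine zippers. Many of its genes are immediate-early genes, transcribed within minutes of a stimulus without new protein synthesis, and Fos protein is widely used to mark recently active neurons, gonadotrophin-releasing hormone neurons at the preovulatory surge among them. ERα can act on DNA directly, through the estrogen response element (ERE), or by tethering to factors such as AP-1. *Egr1* encodes a zinc-finger transcription factor needed for pituitary luteinising hormone expression, *Npas4* a neuron-specific bHLH-PAS factor and *Arc* a synaptic protein, not a transcription factor, that is transcribed in active neurons.

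The peak lists held 3251 to 4079 peaks per arcuate library and 2367 to 3347 per AVPV library, and their read depth was not analysed here. A region counted as called in a nucleus with peaks in 2 or more of the 4 libraries, and 4388 regions were called. The similarity of arcuate library 4 to the other arcuate libraries (shared regions over regions of either library) was 0.405, against 0.483 to 0.499 for the other three. All 9 regions called near the members stayed called without it. This was fixed in advance, since each had peaks in at least 3 libraries of a nucleus. Each list has its own background, so the strength of a peak is given as the percentile of its fold enrichment within its own list, where 100 is the strongest peak.

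Of the 16 regions, 9 were called in at least 1 nucleus and the other 7 had a peak in a single library. Single-library regions made up 43.8% of these regions and 41.5% of all regions of the series. The 9 called regions lay near 7 of the 10 genes. *Fosb* had 3, and *Fos*, *Fosl1*, *Fosl2*, *Jund*, *Npas4* and *Arc* had 1 each, whereas *Jun*, *Junb* and *Egr1* had none. By the same rule 28.8% of all RefSeq protein-coding genes had a called region in their window, and 25.3% of all RefSeq genes. Of the 10 members, 3 were the nearest gene to a called region, *Fos*, *Fosb* and *Fosl2*, against 11.3% of protein-coding genes. Of the 10, 1 (*Fosl2*) had a called region centred in its own promoter (1 kb before to 100 bp after a start site), against 6.67% of protein-coding genes. The windows of the 10 genes held from 0 to 9 other protein-coding genes, with a median of 4.5, against 2.00 for all protein-coding genes, and the part of this crowding in the count was not tested.

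The windows below are those of the called regions nearest to *Fos*, *Fosb* and *Fosl2*, of the strongest region and of the region that differed most between the nuclei. Each sequence is the forward strand of mm10 within 100 bp of the summit of the region's strongest peak by percentile, and capitals mark the motifs found by the search described with them. In the *Fosb* upstream window (chr7:19319698-19319898) the capitals are single ERE arms and, as the longest run, the best ERE match. In the *Fos* downstream window (chr12:85485845-85486045) they mark an ERE arm. The *Fosl2* promoter window (chr5:32135397-32135597) had no match to any motif searched. In the *Slc29a2* window near *Npas4* (chr19:5024306-5024506) they mark a pair of ZNF143 cores on opposite strands and an ERE arm, and in the *Fibp* window near *Fosl1* (chr19:5460444-5460644) a pair of ETS cores.
Fosb upstream: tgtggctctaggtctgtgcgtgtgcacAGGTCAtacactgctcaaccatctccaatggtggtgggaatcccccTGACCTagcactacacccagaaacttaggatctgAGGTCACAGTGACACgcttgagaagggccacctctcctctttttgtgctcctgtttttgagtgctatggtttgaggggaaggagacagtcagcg
Fos downstream: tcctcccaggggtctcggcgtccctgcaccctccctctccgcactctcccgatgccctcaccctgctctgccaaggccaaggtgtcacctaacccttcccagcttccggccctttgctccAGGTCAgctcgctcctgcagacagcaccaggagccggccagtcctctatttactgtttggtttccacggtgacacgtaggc
Fosl2 promoter: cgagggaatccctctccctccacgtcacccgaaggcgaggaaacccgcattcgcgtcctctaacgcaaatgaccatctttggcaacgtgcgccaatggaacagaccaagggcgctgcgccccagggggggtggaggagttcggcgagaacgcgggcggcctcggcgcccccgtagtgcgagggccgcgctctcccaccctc
Npas4, Slc29a2 promoter: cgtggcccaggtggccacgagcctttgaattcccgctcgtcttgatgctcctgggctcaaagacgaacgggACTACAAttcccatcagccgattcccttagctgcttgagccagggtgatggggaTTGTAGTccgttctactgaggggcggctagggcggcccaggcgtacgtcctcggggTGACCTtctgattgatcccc
Fosl1, Fibp promoter: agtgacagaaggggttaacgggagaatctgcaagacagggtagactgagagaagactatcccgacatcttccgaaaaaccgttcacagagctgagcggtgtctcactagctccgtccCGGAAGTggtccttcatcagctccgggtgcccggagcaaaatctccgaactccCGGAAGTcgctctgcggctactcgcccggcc

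**Figure D1:**
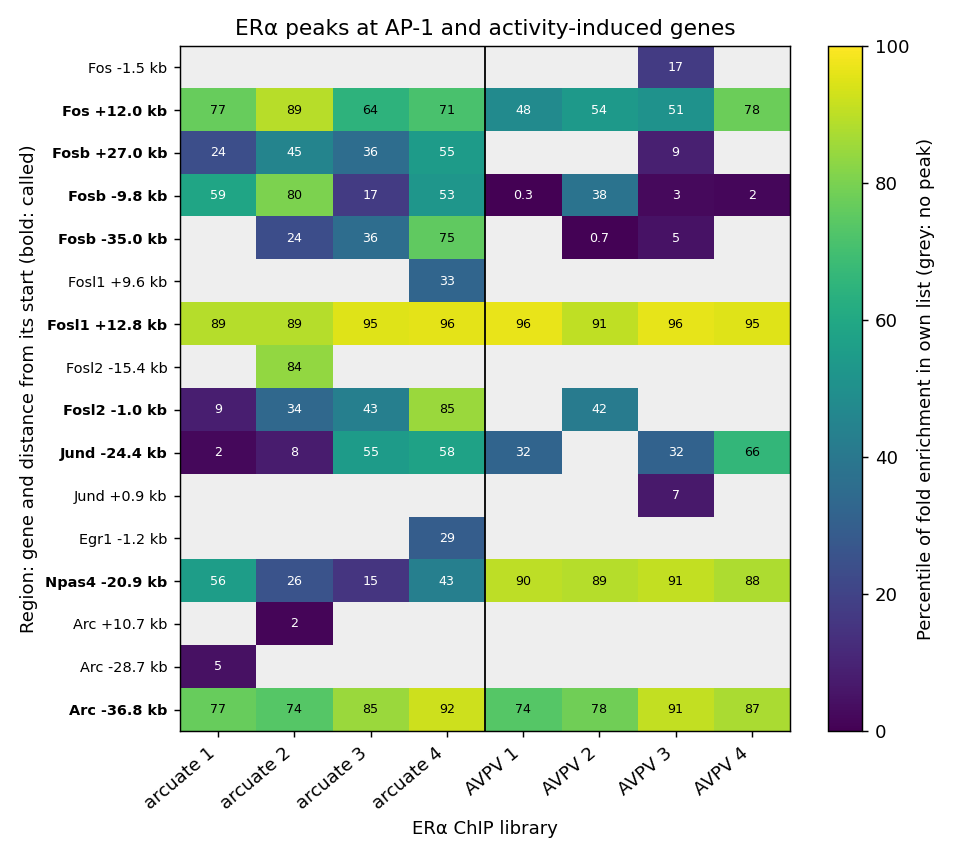
Percentile of fold enrichment of each ERα peak within its own list, for 16 regions (rows, named by gene and distance of the region's centre from that gene's nearest RefSeq start in kb, called regions in bold) in 4 arcuate and 4 AVPV libraries (columns). Grey cells have no peak. The regions of Fos, Fosb (at −9.8 kb), Fosl1, Npas4 and Arc have a peak in all 8 libraries, and 7 rows have a peak in a single library.

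The *Fos* locus had a called region 12 kb downstream of the start site, past the gene's 3′ end (chr12:85485725-85486111). It was intergenic, and the closest start site of another gene was 33.9 kb away. All 8 libraries had a peak there, with summits within 92 bp of each other. Fold enrichment over the background that MACS2 estimated was 6.07 to 12, and whether the pooled input entered that estimate is not given in the sources used here. The percentiles were 76.8, 89.3, 64.5 and 71.3 in arcuate libraries 1 to 4 and 47.8, 54.2, 51.1 and 77.5 in AVPV libraries 1 to 4. The arcuate values lay above 3 of the 4 AVPV values and overlapped that of AVPV library 4. The mean was 75.5 ± 10.5 (SD, n = 4) in the arcuate and 57.6 ± 13.5 in the AVPV, a difference of 17.9 points that did not pass the test (p = 0.114 by an exact two-sided permutation test, adjusted p = 0.289 by Benjamini-Hochberg over the 1089 regions with a peak in all 8 libraries). Near the *Fos* start itself the lists held 1 peak, 1.48 kb upstream, in AVPV library 3 alone, at percentile 17.4.

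*Fosb*, whose ΔFosB splice form builds up in chronically stimulated neurons, had 3 called regions, all of them outside its gene body. The nearest lay 9.78 kb upstream in intergenic sequence (chr7:19319547-19320239) and had a peak in all 8 libraries. The percentiles were 58.9, 80.2, 17.2 and 52.6 in arcuate libraries 1 to 4 and 0.253, 38.2, 2.69 and 1.75 in AVPV libraries 1 to 4. In AVPV libraries 1, 3 and 4 this was thus among the weakest peaks of the list, whereas AVPV library 2 lay above arcuate library 3. The mean was 52.2 ± 26.1 (SD, n = 4) in the arcuate and 10.7 ± 18.3 in the AVPV, a difference of 41.5 points (exact two-sided permutation test, p = 0.0571, adjusted p = 0.204). By the size of this difference it stood 28th toward the arcuate among the 1089 regions. With −log10 q of at least 5, peaks remained in 3 arcuate libraries and 1 AVPV library.

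The other *Fosb* regions lay at the starts of neighbouring genes. One was in an intron of *Rtn2*, a reticulon gene, 422 bp from its start and 27.0 kb from *Fosb* in the direction of transcription (chr7:19282826-19283265). All arcuate libraries had a peak there, at percentiles 23.9, 45.0, 35.9 and 54.9, whereas in the AVPV only library 3 did, at 8.80. Presence in 4 of 4 against 1 of 4 libraries did not pass the test (two-sided p = 0.143 by Fisher's exact test). The other was in the promoter of *Ercc1*, a DNA repair endonuclease subunit gene, 97 bp from its start and 35 kb upstream of *Fosb* (chr7:19345015-19345320). It had peaks at percentiles 23.6, 35.9 and 75.4 in arcuate libraries 2 to 4 and at 0.669 and 4.86 in AVPV libraries 2 and 3. At each of the 3 *Fosb* regions no AVPV library ranked the peak above percentile 38.2, but arcuate values also fell below that. None of the 3 passed a test between the nuclei.

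*Fosl1*, which encodes Fra-1, had the strongest of the 9 regions, 12.8 kb from its start and past its 3′ end, in the promoter of *Fibp*, an FGF-binding protein gene, 92 bp from its nearest start (chr19:5459983-5461029). The percentiles were 89.0, 89.0, 95.1 and 96.0 in arcuate libraries 1 to 4 and 96.5, 90.6, 96.3 and 95.1 in AVPV libraries 1 to 4, with fold enrichment from 11.8 to 21.6. The nuclei overlapped throughout. The AVPV mean was 2.37 points higher (94.6 ± 2.75 against 92.3 ± 3.81, SD, n = 4, exact two-sided permutation test, p = 0.200). A peak of arcuate library 4 alone, at percentile 32.7, lay in an exon of *Ccdc85b*.

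*Fosl2*, which encodes Fra-2, was the member with a called region in its own promoter, centred 0.979 kb upstream of the start (chr5:32135264-32135721). All arcuate libraries had a peak there, at percentiles 8.59, 33.9, 43.1 and 84.9, and in the AVPV only library 2 did, at 41.7. The summits of the 5 peaks lay within 94 bp. The arcuate libraries spanned most of their lists, and the single AVPV value lay inside their range. This contrast, also of 4 libraries against 1, did not pass the test (two-sided p = 0.143 by Fisher's exact test). A further peak 15.4 kb upstream, at the start of *Gm36665*, was in arcuate library 2 alone, at percentile 83.7, the highest of the 7 single-library peaks.

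The Jun genes encode the dimer partners of the Fos proteins. *Jun* and *Junb* had no peak of any library in their windows. The closest called region to the *Jun* start site was 449 kb from it, nearest to *Plaa*, and the closest to that of *Junb* was 92.9 kb away, nearest to *Dhps*. *Jun* had no other protein-coding gene in its window and *Junb* had 8. *Jund*, which is expressed more constitutively than the other Jun genes, had a called region 24.4 kb upstream, in an exon of *Lsm4*, an RNA-processing gene, 153 bp from its start (chr8:70673088-70673680). Its percentiles were 2.30, 7.62, 55 and 57.5 in arcuate libraries 1 to 4 and 32.2, 31.5 and 66.2 in AVPV libraries 1, 3 and 4, with no peak in AVPV library 2. The nuclei overlapped. Within *Jund* itself a peak of AVPV library 3 alone, at percentile 6.81, lay 0.944 kb past the start. A missing peak is not evidence that ERα was absent, since the lists do not hold the reads.

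**Figure D2:**
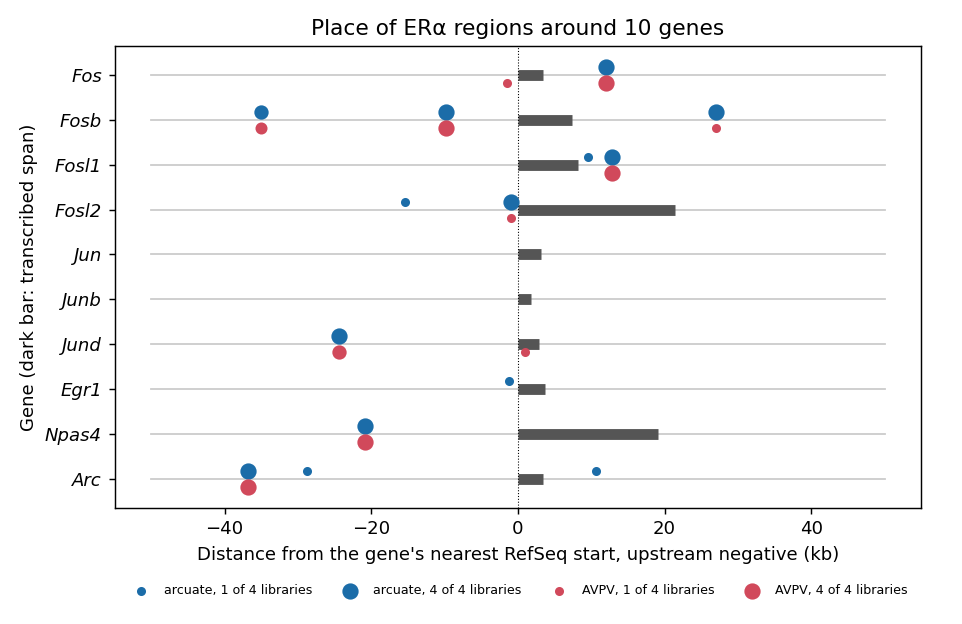
Position of the 16 regions around the 10 genes, as the distance in kb of each region's centre from the gene's nearest RefSeq start, upstream to the left. Marker area gives the number of libraries with a peak out of 4 in the arcuate (blue) and AVPV (red), and dark bars are the transcribed spans. Jun and Junb have no marker, and Fosl2 has the only called region within 1 kb of its own start.

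*Egr1* had no called region. A peak of arcuate library 4 alone, at percentile 29.4, lay 1.17 kb upstream of its start. The closest called region, found in all 8 libraries, was 92.9 kb from that start and nearest to *Hspa9*.

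*Npas4* had the region that differed most between the nuclei. It lay 20.9 kb upstream of the outermost *Npas4* start, a predicted one, at *Slc29a2*, an equilibrative nucleoside transporter gene (chr19:5023865-5024843). Its centre was 332 bp upstream of a predicted *Slc29a2* start, which places it in a promoter, and 348 bp downstream of the curated start. All 8 libraries had a peak there, with summits within 109 bp. The percentiles were 90.1, 88.8, 90.8 and 87.6 in AVPV libraries 1 to 4 and 55.8, 25.5, 15.3 and 43.0 in arcuate libraries 1 to 4. Every AVPV library lay above every arcuate library. The AVPV mean was 54.4 points higher (89.3 ± 1.40 against 34.9 ± 18, SD, n = 4), with p = 0.0286 (exact two-sided permutation test, the smallest that 4 against 4 allows) and an adjusted p of 0.136. Over all 1089 regions 6.80% reached that unadjusted p in the direction of the AVPV and 14.2% in the direction of the arcuate, and no region passed after adjustment. Only 1 region of the 1089 had a larger difference toward the AVPV. Ranked by −log10 q, the difference (arcuate minus AVPV) was −30.4 points, with the same p by the exact permutation test. The lists differed in length, and when each was shortened to its 2367 strongest peaks, or to peaks of fold enrichment above 5, only 2 arcuate libraries kept a peak there beside the 4 AVPV libraries, so the region no longer entered the test.

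*Arc* had a called region 36.8 kb upstream of its start, in the promoter of *Jrk*, 41 bp from its start (chr15:74709085-74709640). The percentiles were 76.8, 73.6, 84.9 and 92.4 in arcuate libraries 1 to 4 and 73.5, 78.4, 91 and 87.3 in AVPV libraries 1 to 4. The region ranked high in every library and the nuclei overlapped (81.9 ± 8.44 against 82.5 ± 8.01, SD, n = 4, exact two-sided permutation test, p = 0.886). Its 2 other regions were single-library peaks of the arcuate at percentiles 1.5 and 4.62.

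**Figure D3:**
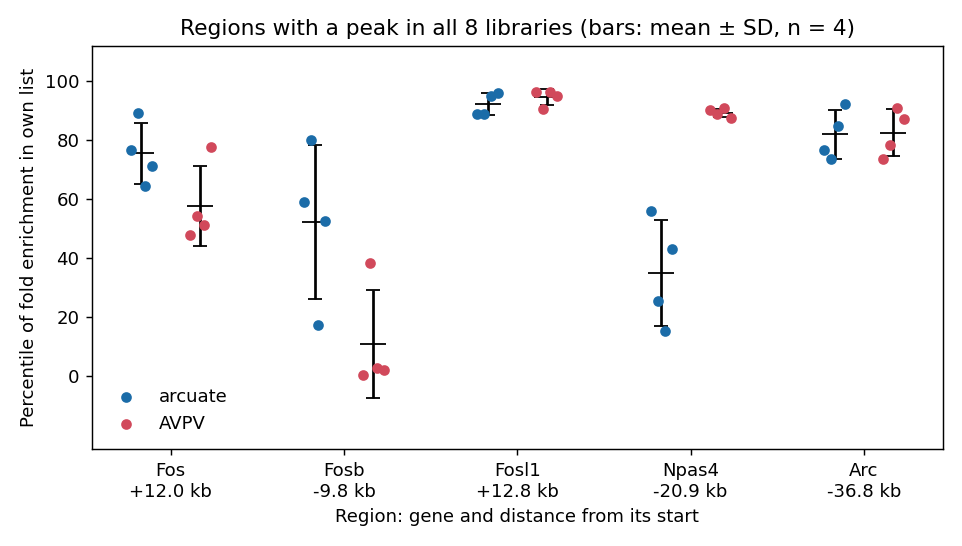
Percentile of fold enrichment within the own list for the 5 regions with a peak in all 8 libraries, with 1 point per library (arcuate blue, AVPV red) and black bars for the mean ± SD of 4 libraries. The nuclei separate without overlap only at the region near Npas4, where AVPV libraries lie between 87.6 and 90.8 and arcuate libraries between 15.3 and 55.8.

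Across the members, no region had a peak in all 4 libraries of one nucleus and in none of the other. Of all 8072 regions, 2.13% had this pattern for the arcuate and 0.818% for the AVPV, and no region of the series passed Fisher's exact test after adjustment (smallest adjusted p = 0.969). A peak in all 8 libraries was found in 5 of the 16 member regions and in 13.5% of all regions. Over the 1089 regions the median size of the difference was 8.15 points in either direction, which *Fos*, *Fosb* and *Npas4* exceeded and *Fosl1* and *Arc* did not. The number of member regions with a peak was 9, 11, 9 and 11 in arcuate libraries 1 to 4 and 6, 7, 10 and 6 in AVPV libraries 1 to 4. AVPV library 3, with the most, was also the longest AVPV list. As a share of the peaks in each list, the counts were 0.221%, 0.284%, 0.277% and 0.317% in arcuate libraries 1 to 4. In AVPV libraries 1 to 4 the shares were 0.253%, 0.275%, 0.299% and 0.196%, so the nuclei overlapped.

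**Figure D4:**
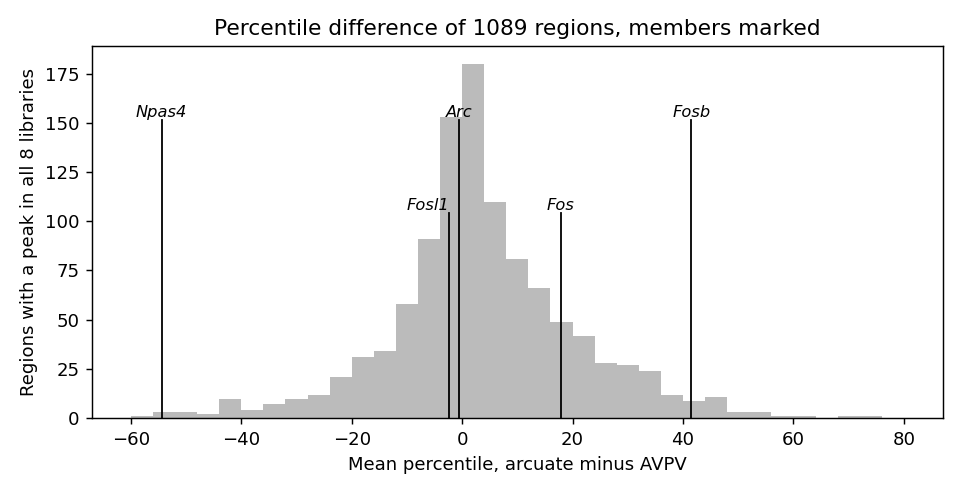
Histogram of the difference in mean percentile, arcuate minus AVPV, over the 1089 regions with a peak in all 8 libraries, with the 5 member regions marked by lines. Npas4 lies at −54.4 and Fosb at 41.5, toward opposite ends, whereas Fosl1 (−2.37) and Arc (−0.608) lie near the centre.

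Most of the called member regions sat at the start of another gene. Of the 9, 6 were centred within 500 bp of a start site that was not the member's own, those at *Rtn2*, *Ercc1*, *Fibp*, *Lsm4*, *Slc29a2* and *Jrk*. Of all 4388 called regions 35.8% lay within 500 bp of any start site. By the annotation of their centres 5 of the 9 were in promoters, 2 intergenic, 1 in an intron and 1 in an exon, against 30.1%, 26.9%, 33.6% and 7.95% of all called regions. The members that were themselves nearest to a region, *Fos*, *Fosb* and *Fosl2*, held the 2 intergenic ones and the own-promoter one. The median GC content of the summit windows was 63.2%, close to that of called promoter regions (62.7%) and above that of the other called regions (48.3%).

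EREs were searched as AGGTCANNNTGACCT allowing 2 mismatches over the 12 fixed bases, within 100 bp of the summit. Only the *Fosb* upstream region held a match, AGGTCACAGTGACAC at chr7:19319805-19319819, 14 bp from the summit and with 2 mismatches. The best element of the other 8 had 3 to 5 mismatches. Of all called regions 36.1% held a match, 49.3% of those outside promoters and 5.37% of those in promoters. The single ERE arm AGGTCA was found on either strand in the *Fos*, *Fosb* and *Npas4* windows, against 38.8% of all called regions, and the *Fosb* window had 3 of them, 1 inside its ERE match.

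None of the 9 windows held an AP-1 site (TGANTCA), a cyclic AMP response element (TGACGTCA), a CArG box, which serum response factor binds, or an EGR site (GCGTGGGCG or GCGGGGGCG), each searched on both strands. In all called regions these were found in 6.45%, 0.387%, 0.957% and 1.21%. Searched after the sequences had been read, the ETS core CGGAAGT was found in 4 of the 9 windows, those at *Ercc1*, *Fibp*, *Lsm4* and *Jrk*, against 24.4% of called promoter regions and 2.58% of the others. The core ACTACAA of the element bound by ZNF143 was found in the *Slc29a2* window alone, against 7.56% of called promoter regions and 1.76% of the others. In the *Slc29a2* window its matches were centred 26 bp before and 28 bp after the summit. These matches are descriptions of the letters and do not show which factor binds.

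RefSeq promoters of GRCm38 (250 bp before to 50 bp after a start) were at hand for 7 members, *Fos*, *Fosb*, *Fosl2*, *Jun*, *Junb*, *Jund* and *Npas4*. None held an ERE match, an ERE arm, an AP-1 site, a cyclic AMP response element or a CArG box in this window. An EGR site was found in the promoters of *Fosb* and *Fosl2*, against 3.47% of all 32851 promoters, and the ETS core in those of *Junb* and *Npas4*, against 6.42%. In all promoters an ERE match was found in 1.5%, an ERE arm in 16.3%, an AP-1 site in 7.81%, a cyclic AMP response element in 1.79% and a CArG box in 1.63%. At these shares, finding none in 7 promoters sets the members apart in no way. Elements farther upstream than this window would not be counted.

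A list of 61 related genes was treated in the same way. A called region lay in the window of 22 of them, against 28.8% of all protein-coding genes. They were the nearest gene to one in 9 cases (11.3% of protein-coding genes) and had one in their own promoter in 4 (6.67%), those of *Creb1*, *Mef2a*, *Nab2* and *Homer1*. These shares are given as descriptions, and nothing particular to the list is read from them. Among 12 further bZIP genes, whose products can pair with AP-1 proteins, 5 had a called region and none was the nearest gene. A region near *Mafk* and the one near *Batf3* had a peak in all 8 libraries, with median percentiles of 93.3 and 92.5. *Mafk* had a further region, called in the AVPV only, and the region near *Atf3* had peaks in 2 arcuate and 4 AVPV libraries, with a median of 24.3. At the *Mafk* region of all 8 libraries, whose nearest start was that of *Psmg3*, the AVPV libraries (94.2 to 97.4) lay above the arcuate ones (86.9 to 92.4), as in 6.80% of the 1089 regions, none of which passed after adjustment.

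Of 13 other immediate-early transcription factor genes, 5 had a called region, against 28.8% of all protein-coding genes. Those of *Klf10* (median percentile 68.6, 8 libraries), *Klf2* (46.9, 2 arcuate and 4 AVPV libraries) and *Egr2* (27.5, 3 of each) had the most libraries. *Klf2* was the nearest gene to its region. The *Klf10* region was nearest to *Gm35248*, and the *Egr2* region was in the promoter of *Ado*. Of 16 upstream factors and corepressors, 8 had one, against the same 28.8%, and nothing particular to this group is read from it. One of the 2 called regions near *Elk3* and the one near *Srf*, whose products act together at serum response elements, had a peak in all 8 libraries (median percentiles 61.6 and 17.3). This *Elk3* region was nearest to *Gm32551*, and the *Srf* region was in the promoter of *Cul9*. In the promoter of *Mef2a*, a factor gene of activity-dependent transcription, peaks of 4 arcuate and 3 AVPV libraries had a median percentile of 62.7. *Mrtfa*, a coactivator of serum response factor, was the 1 related gene whose region separated the nuclei. That region had a peak in 4 AVPV libraries at percentiles 59.6 to 89.5 and in no arcuate library (two-sided p = 0.0286 by Fisher's exact test, smallest adjusted p over all regions 0.969). Of all 8072 regions, 0.818% had this pattern for the AVPV and 2.13% the reverse for the arcuate. *Mrtfa*, *Creb1* and *Nab2* were named after their values had been seen.

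Of 20 activity-induced effector genes, 4 had a called region, against 28.8% of all protein-coding genes. *Homer1*, a synaptic scaffold gene, had it in its own promoter, with peaks in 4 arcuate libraries at percentiles 74.5 to 82.0 and in 2 AVPV libraries at 36.0 and 67.7. The region near *Gadd45b* had a peak in all 8 libraries, at 46.9 to 63.5 in the AVPV and 4.92 to 33.4 in the arcuate, with the nearest start that of *Timm13*. It too belongs to the 6.80% of the 1089 regions that separate in this direction, with no pass after adjustment. That near *Zfp36*, which encodes an mRNA-destabilising protein, had peaks in 4 arcuate libraries and 1 AVPV library, with a median percentile of 2.44. Its nearest start was that of *Supt5*.

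The 50 kb limit decided which genes counted. Within 20 kb, 4 members had a called region (18.6% of protein-coding genes), and within 100 kb 9 had one (41.4%). The called region closest to the limit from inside was that of *Arc* at 36.8 kb, and from outside it was 59.1 kb upstream of *Fosl1*, at *Sart1*, with a peak in all 8 libraries and a median percentile of 37.2. Within 100 kb *Jun* was the member left without a called region.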

How the data were processed

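The authors made the ERα libraries from pooled chromatin, aligned the reads to mm10 with Bowtie2 2.5.0 and called peaks per library with MACS2 2.2.7.1 (deepTools 3.5 served their coverage tracks). The deposited lists give each peak's position, summit, score (10 times the −log10 q in 25981 of 25982 peaks, not used), fold enrichment (a ratio over the background that MACS2 estimated, with the use of the pooled input not given in the sources used here) and −log10 p and q. The p-values were not used, −log10 q was used as a filter and an alternative ranking, and fold enrichment as a percentile within its list with ties averaged. All peaks lay within the mm10 chromosome lengths. Each list is limited by its own background and read depth, which is unknown from the files, so no interval or floor is given.

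Peaks sharing at least 1 bp were merged. Starts came from 119253 RefSeq transcripts of GRCm38.p6. Nuclei were compared by Fisher's exact test per region and exact two-sided permutation of percentiles over 70 assignments of the libraries, with Benjamini-Hochberg adjustment over 8072 and 1089 regions. The member genes, lists and tests were chosen with earlier results of these data known. All 10 genes were named, up to 3 genes per related group by number of libraries and then median percentile, and neighbours only where their start was nearest to a region. *Creb1*, *Nab2* and *Mrtfa* were named outside this rule. Sequences beyond the rule (an ERE, AP-1 or CRE match, or a member's own promoter) were the *Fos*, *Slc29a2* and *Fibp* windows, chosen after their values were seen. Only 4 peaks had identical coordinates in more than 1 library, which gave no sign of a duplicated library. Methods were tested on simulated data. The 2 pooled inputs were not analysed here. Same-numbered libraries of the nuclei did not deviate together (correlations −0.213 to 0.0493). Python 3.11.15, numpy 2.4.6, scipy 1.17.1 and matplotlib 3.10.9 were used.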

Additional observations from a re-analysis of the deposited data

Results flagged for a closer look

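At the *Fosb* upstream region (chr7:19319547-19320239), AVPV library 2 ranked the peak at percentile 38.2, far from the 0.253 to 2.69 of the other three AVPV libraries. Its gap to the nearest of them was 0.936 of the range, above Dixon's 95% critical value for 4 samples. It was the 1 flag in 15 groups of 4 libraries looked at, where chance flags about 1 in 20 groups. The cause was not tested.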

How the results depend on the processing

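The count of 7 genes was 4 within 20 kb and 3 with only regions nearest to a member, and the count of 9 called regions was 4 within 20 kb, 17 within 100 kb, 16 when 1 library was enough and 3 with only regions nearest to a member, an alternative chosen after seeing the data. The number of member regions separating the nuclei rose from 0 to 1, the *Rtn2* region near *Fosb*, with −log10 q of at least 5, and was 0 to 1 when each library was left out in turn, with *Fosl2* separating without AVPV library 2 and the *Rtn2* region without AVPV library 3. Within 100 kb the *Hspa9* region, outside the 50 kb window of *Egr1*, differed in percentile as well. The 1 region differing in percentile within 50 kb, that near *Npas4*, became 0 with fold enrichment above 5 and with lists of equal length (2367 peaks), since peaks then remained in 2 arcuate and 4 AVPV libraries. It stayed at 1 without each library, with an AVPV-directed difference of 47.8 to 61.3 points. Leaving out 1 library could not undo this separation, since the nuclei did not overlap there. Under the replicate block, an exact sign-flip over same-numbered libraries whose smallest p is 0.125, the count was 0 (*Npas4* difference −54.4, exact sign-flip test p = 0.125). The libraries share only a number, so the block is no sign of a weaker effect. The *Arc* difference, −0.608 (arcuate minus AVPV), reversed to 1.11, 2.15, 2.2 and 0.971 without arcuate library 1, arcuate library 2, AVPV library 3 and AVPV library 4. Without each library in turn the counts stayed at 7 genes and 9 regions. These counts were fixed in advance, since each called region had peaks in at least 3 libraries of a nucleus. The leave-one-out differences (arcuate minus AVPV) were 13.2 to 24.5 points for *Fos*, 32.2 to 53.2 for *Fosb*, −3.71 to −1.27 for *Fosl1*, −61.3 to −47.8 for *Npas4* and −4.10 to 2.2 for *Arc*. Regions with an ERE match were 0 with at most 1 mismatch, 3 with at most 3 and 3 with 10 fixed bases (chosen after seeing the data). The promoter count of 5 stayed within 1.5 times under both other definitions. Peak lists cannot show weak binding below the authors' threshold.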
